A study of Homo sapiens with 6 samples.

Results

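The genes described here are the amino acid and tRNA synthetase genes of the ATF4 programme, a module of 35 genes listed by symbol, of which 20 encode the cytosolic aminoacyl-tRNA synthetases. All 35 symbols were found in the authors' deposited table of their own comparison, where they cover 41 Ensembl gene IDs and 502 transcripts, out of 63677 gene IDs and 215170 transcripts in all. The 6 additional IDs all belong to VARS, which has copies on alternative versions of its region, and each other gene has 1 ID. All 41 IDs passed the filter on level. The list names genes by known function, and its rule uses no measured value, but it was chosen with earlier results of these data known.

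Total RNA of KMS27, an established human myeloma cell line of malignant plasma cells, was sequenced in 6 libraries after removal of ribosomal RNA. Wild type cells gave 3 libraries, and cells that overexpress HA-TAZ gave the other 3. HA-TAZ is the transcriptional coactivator TAZ (gene WWTR1) with an HA peptide tag. Titles of the wild type samples include HA too, and the labels do not say whether those cells received a construct, nor which promoter drives HA-TAZ or whether a clone was used. The question was which transcripts differ when TAZ is overexpressed. The HA-TAZ libraries are called HA-TAZ 1, 2 and 3. The 3 control columns carry a name found in no label (scr), were taken as wild type by elimination, and are called control a, b and c. Per the labels' protocols libraries were made in triplicate, and separate cultures are not named, so the p-values measure the spread between these libraries, which may be technical. Values are listed below in the order HA-TAZ 1, 2, 3 and control a, b, c.

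ATF4 is a transcription factor whose protein is made when the initiation factor eIF2 is phosphorylated, as in amino acid shortage or endoplasmic reticulum stress, while most other translation falls. Its mRNA can therefore stay level while its protein rises, and its activity is commonly read from its targets, which include enzymes of asparagine and serine synthesis, amino acid transporters, mitochondrial folate enzymes and many tRNA synthetases. Plasma cells export large amounts of antibody and draw heavily on amino acids and on protein folding in the endoplasmic reticulum. WARS, the tryptophanyl-tRNA synthetase, is also a classical interferon-gamma-induced gene and is described apart.

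WWTR1 was at 293 TPM or more in every HA-TAZ library and at 2.69 TPM or less in every control. All 8 plasma cell markers examined had a mean of at least 1 TPM, and summed to 550 to 599 TPM in HA-TAZ and 653 to 743 TPM in control libraries. The summed markers of T cells, monocytes, epithelial cells, fibroblasts and endothelial cells each stayed at or below 4.89 TPM in every library. In these other lists a mean of 1 TPM was reached by 2 fibroblast markers and by 1 marker of each other cell type. TPM is a share of a library and carries no depth, and depth per library was unknown. From means in the authors' deposited table, there were between 137 (the main ID of VARS) and 66645 estimated counts per member in a typical library, with a median of 12253, so counting error was small for most members. To compare libraries, TPM was divided by a size factor per library (scaled TPM). The median log2 fold change of all genes, HA-TAZ over control, was −0.03 on scaled TPM and −0.27 on TPM as deposited, so small changes depend on this choice and both values are given. Whether all RNA per cell differed between the groups cannot be told from these values, and a different number of cells and a different RNA content per cell cannot be told apart.

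ATF4 binds sites that contain the core TGATGNAA, the amino acid response element, abbreviated here as CARE. RefSeq (GRCh38.p14) gave 300-base windows around annotated starts (250 bases before to 50 after) for 27 of the 35 members, and they show which members carry the core next to a start. PSPH, SLC7A11, SHMT2, ALDH1L2, DARS, LARS, VARS and YARS had no window. On either strand, 10 of the 27 held the core (37.04%), against 4.46% of all 27305 genes with a window and 3.62% of all 35116 windows of the same length. The matches are printed 5′ to 3′ on the strand that reads TGATGNAA, with the core in capitals.
CHAC1 chr15:40953262-40953269, minus strand: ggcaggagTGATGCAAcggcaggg
ASNS chr7:97872469-97872476, minus strand: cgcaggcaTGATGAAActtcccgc
SLC3A2 chr11:62881736-62881743, minus strand: ggagcTGATGTAAggagtcct
AARS chr16:70289686-70289693, plus strand: aacttggcTGATGCAActgcgaga
CARS chr11:3057418-3057425, plus strand: ctagaatcTGATGCAAccgccgcc
GARS chr7:30594845-30594852, minus strand: tcggagcaTGATGAAAtcgccgcg
IARS chr9:92293703-92293710, plus strand: cacggaggTGATGCAAcgcgctga
MARS chr12:57488064-57488071, minus strand: tccctcgcTGATGCAAccggaacc
NARS chr18:57621815-57621822, minus strand: acgctctcTGATGCAAcgccggaa
TARS chr5:33440967-33440974, minus strand: ggaccagcTGATGCAAtcgaaagg
Of these 10 matches, 7 read TGATGCAA, those of ASNS and GARS read TGATGAAA and that of SLC3A2 reads TGATGTAA. A match is a description of these letters and not a bound site. Of the 6 members whose level changed in the test described next, SLC3A2 alone held a CARE match, WARS, KARS, FARSA and SLC7A5 had a window without one, and ALDH1L2 had no window. The median log2 fold change was 0.11 over the 10 members with a match and 0.15 over the 17 with a window and no match, and −0.19 and −0.15 on TPM as deposited.

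On scaled TPM the amino acid transporter subunits SLC7A5 and SLC3A2 and the synthetases WARS, KARS and FARSA rose and the mitochondrial folate enzyme ALDH1L2 fell, while ATF4 itself, DDIT3, ASNS and the other 26 members did not pass the test. These 5 rises made up 14.3% of the 35 members, where 4.67% of the 22651 tested genes were called higher, and the 1 fall made up 2.86%, where 2.63% were called lower (limma, Benjamini-Hochberg adjusted p under 0.05). The median log2 fold change of the 35 was 0.09, against −0.03 over all genes and 0.06 over all protein-coding genes. The 2 groups of libraries did not overlap for 18 members, 15 higher (42.9%, where 20.2% of all genes were higher without overlap) and 3 lower (8.57%, where 18.3% were lower). The counts in this paragraph take VARS by its main ID, which holds a small part of its TPM and is 1 of the 3 lower. Summed over its 7 IDs, VARS was higher without overlap on scaled TPM and called higher (0.24, limma adjusted p = 0.0273). All 35 members are protein-coding, and of the 11666 protein-coding genes tested 7.5% were called higher and 2.18% lower, and 31.4% were higher and 14% lower without overlap. At an unadjusted p under 0.05 in limma there were 14 higher (40%) and 2 lower (5.71%) members, against 16.6% and 14.1% of all genes and 26% and 9.96% of protein-coding genes. With TPM as deposited SLC7A5 alone was called higher, which is 2.86% of members against 1.15% of genes, and 6 were called lower (ATF5, ASNS, PHGDH, ALDH1L2, QARS and VARS), 17.1% of members against 13.5% of genes (1.54% and 13.3% of protein-coding genes, higher and lower). The median was then −0.21, against −0.27 over all genes and −0.20 over protein-coding genes. Calls also depended on single libraries, for all genes as for the members. Of all genes 1652 were called with all 6 libraries. Without HA-TAZ 1, 2 or 3 there were 118, 137 and 211 calls, and without control a, b or c 407, 166 and 470. None of the 6 members was called without HA-TAZ 1, without HA-TAZ 2, without HA-TAZ 3 or without control b, while SLC7A5, KARS and WARS were called without control a, and SLC7A5 and WARS without control c (limma, same threshold).

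**Figure D1:**
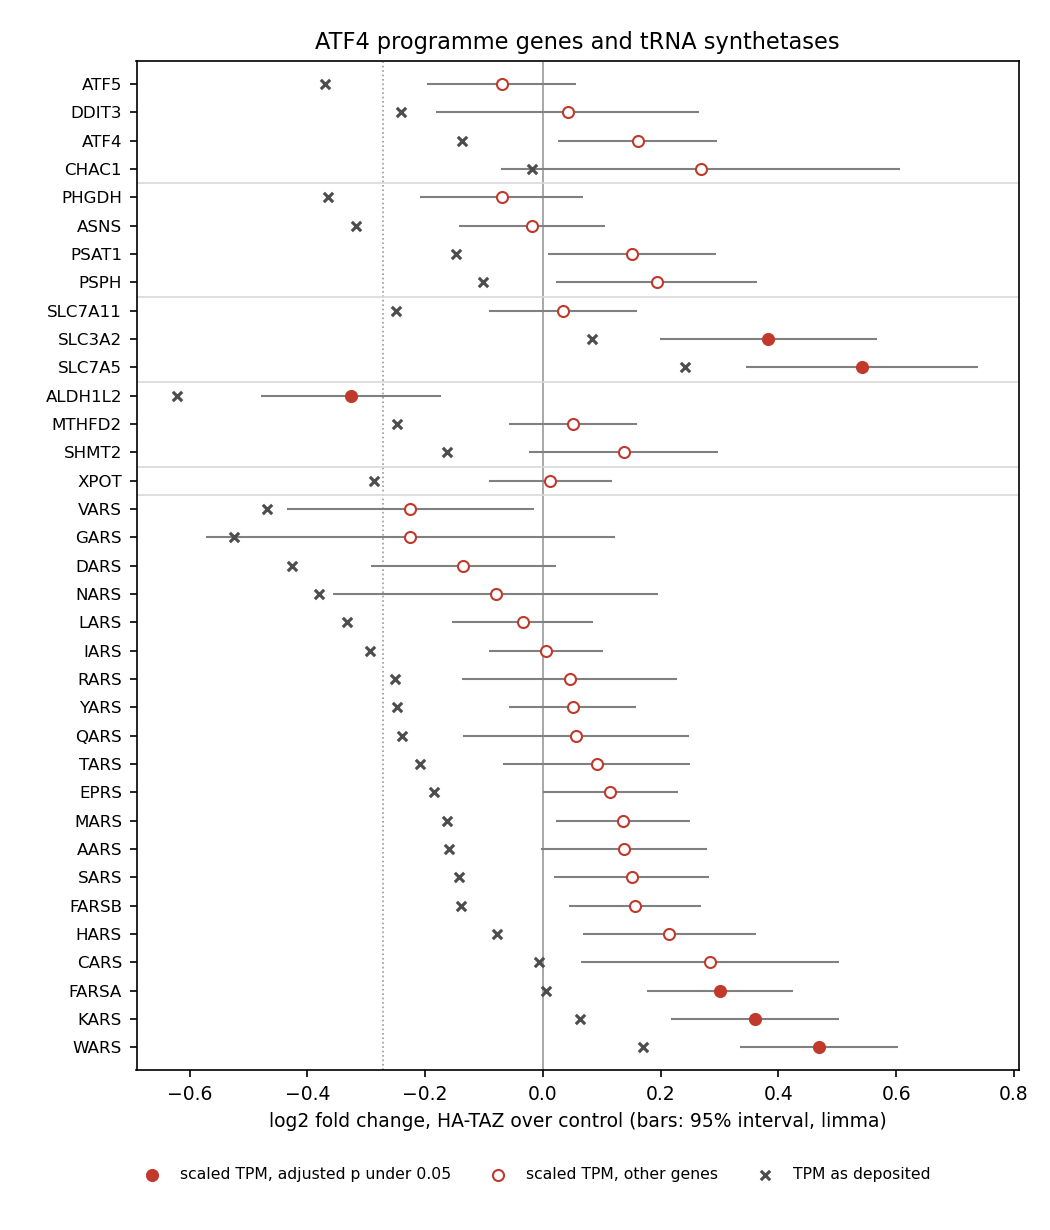
Log2 fold change of the 35 members, HA-TAZ over control, on scaled TPM (circles, with 95% intervals from limma; filled where the Benjamini-Hochberg adjusted p is under 0.05) and on TPM as deposited (crosses), grouped by role. The solid line marks 0 and the dotted line the median of all genes on TPM as deposited (−0.27). SLC7A5, WARS, SLC3A2, KARS and FARSA stand to the right and ALDH1L2 to the left of 0 on scaled TPM.

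The regulators did not pass the test. ATF4 (ENSG00000128272) was at 146, 145 and 136 scaled TPM in the HA-TAZ libraries and at 123, 135 and 124 in the controls. Its groups stood just apart, with the lowest HA-TAZ library 1.01 times the highest control, and the difference was not called (log2 fold change 0.16, SE 0.05, limma, Benjamini-Hochberg adjusted p = 0.117), and its sign turned on TPM as deposited (−0.14). DDIT3 (ENSG00000175197), which encodes the stress factor CHOP, was at 16.4, 14.7 and 13.8 scaled TPM in the HA-TAZ libraries and at 13.1, 15.4 and 15.1 in the controls. These groups overlapped (log2 fold change 0.04, SE 0.09, limma adjusted p = 0.783), and the value was −0.24 on TPM as deposited. Within each library, which removes the scaling, the ratio of DDIT3 to ATF4 was 0.105 ± 0.00624 and 0.114 ± 0.00730 (SD, n = 3 each, HA-TAZ and control), and the groups overlapped (exact permutation p = 0.2). CHAC1 (ENSG00000128965), which encodes a glutathione-degrading enzyme, had the widest interval of the regulators. It was at 23.99, 20.3 and 22.6 scaled TPM in the HA-TAZ libraries and at 15.2, 18.4 and 21.8 in the controls, with control a lowest and control c within the range of the HA-TAZ libraries (log2 fold change 0.27, SE 0.14, limma, Benjamini-Hochberg adjusted p = 0.243; −0.02 on TPM as deposited). ATF5 (ENSG00000169136), a related leucine zipper factor and the most abundant regulator, was at 235, 232 and 222 scaled TPM in the HA-TAZ libraries and at 244, 251 and 229 in the controls (log2 fold change −0.07, SE 0.05, limma, Benjamini-Hochberg adjusted p = 0.398; −0.37 on TPM as deposited, adjusted p = 0.0488 by limma).

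Enzymes of amino acid synthesis did not pass the test either. ASNS (ENSG00000070669), asparagine synthetase and a textbook ATF4 target, was at 192, 182 and 175 scaled TPM in the HA-TAZ libraries and at 181, 183 and 191 in the controls. The libraries of both groups interleaved (log2 fold change −0.02, SE 0.05, limma, Benjamini-Hochberg adjusted p = 0.829), and on TPM as deposited the value was −0.32 and called lower (adjusted p = 0.0398 by limma), close to the median of all genes there. Set against ATF4 within each library, ASNS was lower in HA-TAZ cells without overlap, at 1.31, 1.25 and 1.28 in the HA-TAZ libraries and 1.47, 1.36 and 1.53 in the controls (exact permutation p = 0.1). In the serine pathway, PHGDH (ENSG00000092621), the first enzyme, had the lowest value (47.1 ± 1.14 against 49.5 ± 2.98 scaled TPM (SD, n = 3 each); log2 fold change −0.07, SE 0.06, limma, Benjamini-Hochberg adjusted p = 0.441; −0.36 on TPM as deposited). PSPH (ENSG00000146733), the last enzyme, had the highest (48.8 ± 2.19 against 42.6 ± 3.18 scaled TPM (SD, n = 3 each); log2 fold change 0.19, SE 0.07, limma, Benjamini-Hochberg adjusted p = 0.128; −0.10 on TPM as deposited). PSAT1 (ENSG00000135069), the enzyme between them, stood at a log2 fold change of 0.15 (limma adjusted p = 0.146) and −0.15 on TPM as deposited. PSPH and PSAT1 were higher without overlap on scaled TPM and lower without overlap on TPM as deposited.

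Of the 3 amino acid transport genes 2 rose and 0 fell. SLC7A5 (ENSG00000103257), the light chain LAT1 that carries leucine, tryptophan and other large neutral amino acids, was at 287, 271 and 284 scaled TPM in the HA-TAZ libraries and at 171, 202 and 206 in the controls. All HA-TAZ libraries were above all controls, with control a lowest. SLC7A5 rose by 0.54 on the log2 scale (SE 0.08, limma, Benjamini-Hochberg adjusted p = 0.0266), and by 0.24 on TPM as deposited (adjusted p = 0.0398 by limma), and across the fits without 1 library it ranged from 0.46 to 0.59 with adjusted p from 0.0246 to 0.104. SLC3A2 (ENSG00000168003), the heavy chain 4F2hc that brings LAT1 to the cell surface, was at 168, 159.6 and 169.99 scaled TPM in the HA-TAZ libraries and at 114, 136 and 131 in the controls. Again the groups did not overlap and control a was lowest. SLC3A2 rose by 0.38 (SE 0.07, limma, Benjamini-Hochberg adjusted p = 0.0431), with 0.08 on TPM as deposited (adjusted p = 0.285 by limma), and had adjusted p from 0.0535 to 0.136 without 1 library, so it was called in none of those 6 fits. SLC7A11 (ENSG00000151012), the light chain that pairs with the same heavy chain to exchange cystine for glutamate, was at 15.7, 15.3 and 15.3 scaled TPM in the HA-TAZ libraries and at 15.2, 15.5 and 14.5 in the controls. Its groups overlapped (log2 fold change 0.03, SE 0.05, limma, Benjamini-Hochberg adjusted p = 0.686; −0.25 on TPM as deposited). Ratios within a library do not depend on the scaling. The ratio of SLC7A5 to SLC7A11 was 18.2, 17.8 and 18.6 in the HA-TAZ libraries and 11.3, 13.1 and 14.2 in the controls. The ratio of SLC7A5 to SLC3A2 was 1.69 ± 0.0206 and 1.52 ± 0.0462, and that of SLC7A11 to SLC3A2 was 0.0931 ± 0.00289 and 0.119 ± 0.0121 (SD, n = 3 each, HA-TAZ and control). None of these 3 ratios overlapped between the groups (exact two-sided permutation p = 0.1 each, the smallest possible for 3 against 3). In all, 32 ratios, shares and sums within libraries were compared, of which 12 were higher and 7 lower in HA-TAZ without overlap, and an exact permutation p of 0.1 became 0.168 after Benjamini-Hochberg adjustment over the 32.

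The promoter window of SLC3A2 that holds its CARE match is printed because SLC3A2 was the changed member with one. It lies at chr11:62881449-62881748 on the plus strand. Capitals mark a match to the core of the gamma-interferon-activated sequence (GAS), TTCNNNGAA, a palindrome, and, nearer the end, the CARE core read on the opposite strand; these matches do not overlap.
SLC3A2: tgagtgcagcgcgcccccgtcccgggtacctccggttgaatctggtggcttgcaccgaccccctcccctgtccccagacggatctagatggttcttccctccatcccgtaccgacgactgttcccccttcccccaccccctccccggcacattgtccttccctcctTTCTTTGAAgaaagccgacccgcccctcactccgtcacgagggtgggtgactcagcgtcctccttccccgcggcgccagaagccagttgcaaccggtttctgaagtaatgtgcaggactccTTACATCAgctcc
The GAS core was held by 4 of the 27 members (14.8%: SLC3A2, CARS, TARS and WARS), against 9.38% of all genes.

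**Figure D2:**
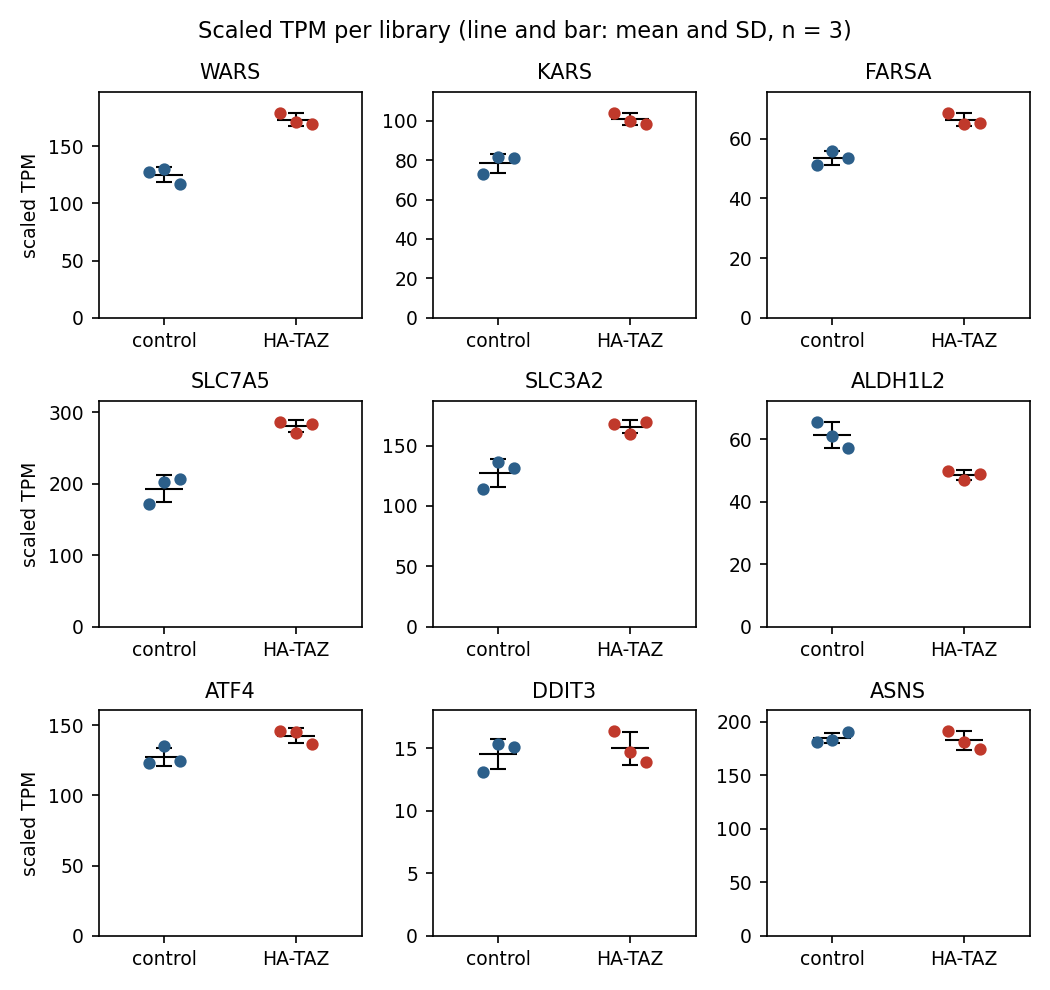
Scaled TPM (linear axes from 0) of the 6 changed members and of ATF4, DDIT3 and ASNS in each library, with mean and SD of 3 libraries. The groups stand apart for WARS, KARS, FARSA, SLC7A5, SLC3A2 and, in the opposite direction, ALDH1L2, and overlap for DDIT3 and ASNS.

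Among the mitochondrial folate enzymes, which make formate and NADPH from serine, 1 of 3 fell. ALDH1L2 (ENSG00000136010), which oxidises formyl-folate in mitochondria, was at 49.9, 46.9 and 48.9 scaled TPM in the HA-TAZ libraries and at 65.6, 60.96 and 57.1 in the controls. Every HA-TAZ library was below every control. ALDH1L2 fell by 0.33 on the log2 scale (SE 0.06, limma, Benjamini-Hochberg adjusted p = 0.0416) and by 0.62 on TPM as deposited (adjusted p = 0.0311 by limma), with adjusted p from 0.053 to 0.128 when 1 library was left out. SHMT2 (ENSG00000182199), which splits serine to glycine and a one-carbon unit, was at 184 ± 8.83 against 167 ± 10.99 scaled TPM (SD, n = 3 each) (log2 fold change 0.14, SE 0.07, limma, Benjamini-Hochberg adjusted p = 0.213; −0.16 on TPM as deposited). MTHFD2 (ENSG00000065911), the next enzyme of that route, had a log2 fold change of 0.05 (limma adjusted p = 0.464) and −0.25 on TPM as deposited. Within libraries the ratio of ALDH1L2 to MTHFD2 was 0.270, 0.257 and 0.277 in the HA-TAZ libraries and 0.390, 0.339 and 0.323 in the controls, without overlap (exact permutation p = 0.1). XPOT (ENSG00000184575), the nuclear exporter of tRNA, was at 139, 135 and 132 scaled TPM in the HA-TAZ libraries and at 138, 133 and 131 in the controls (log2 fold change 0.01, SE 0.04, limma, Benjamini-Hochberg adjusted p = 0.864; −0.29 on TPM as deposited).

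Of the 20 cytosolic synthetases, WARS, KARS and FARSA rose and 0 fell, where 4.67% of all genes and 7.5% of protein-coding genes were called higher. Leaving WARS aside, KARS (ENSG00000065427), lysyl-tRNA synthetase, was at 104, 99.98 and 98.4 scaled TPM in the HA-TAZ libraries and at 72.8, 81.4 and 80.9 in the controls. The groups did not overlap, and control a was lowest. KARS rose by 0.36 (SE 0.06, limma, Benjamini-Hochberg adjusted p = 0.0314; 0.06 on TPM as deposited, adjusted p = 0.43), and had adjusted p from 0.0465 to 0.115 when 1 library was left out. FARSA (ENSG00000179115), the alpha subunit of phenylalanyl-tRNA synthetase, was at 68.8, 65.1 and 65.2 scaled TPM in the HA-TAZ libraries and at 51.3, 56.1 and 53.7 in the controls. It rose by 0.30 (SE 0.05, limma, Benjamini-Hochberg adjusted p = 0.0339; 0.00 on TPM as deposited, adjusted p = 0.96), and had adjusted p from 0.0677 to 0.118 when 1 library was left out. Its partner FARSB (ENSG00000116120), the beta subunit, was at 51.03, 52.2 and 48.5 scaled TPM in the HA-TAZ libraries and at 45.5, 45.97 and 44.3 in the controls. FARSB was not called (log2 fold change 0.16, SE 0.05, limma, Benjamini-Hochberg adjusted p = 0.0864), and its sign turned on TPM as deposited (−0.14). The ratio of FARSA to FARSB was 1.31 ± 0.0582 and 1.19 ± 0.0509 (SD, n = 3 each, HA-TAZ and control), without overlap (exact permutation p = 0.1).

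A further 7 synthetases, including FARSB, were higher on scaled TPM without overlap and not called, with log2 fold changes of 0.11 to 0.28 (limma adjusted p from 0.0792 to 0.171) that were −0.18 to −0.01 on TPM as deposited. Counting the called ones, 10 of the 20 were higher without overlap and 2 lower (DARS, and VARS by its main ID). Of protein-coding genes 31.4% were higher and 14% lower without overlap, and of all genes 20.2% and 18.3%. The other 6 of these were AARS (ENSG00000090861), CARS (ENSG00000110619), EPRS (ENSG00000136628), HARS (ENSG00000170445), MARS (ENSG00000166986) and SARS (ENSG00000031698), which charge the tRNAs of alanine, cysteine, glutamate with proline, histidine, methionine and serine. Overlapping groups with values of 0.01 to 0.09 were found for IARS (ENSG00000196305), QARS (ENSG00000172053), RARS (ENSG00000113643), TARS (ENSG00000113407) and YARS (ENSG00000134684), which charge those of isoleucine, glutamine, arginine, threonine and tyrosine (−0.29 to −0.21 on TPM as deposited). LARS (ENSG00000133706) for leucine and NARS (ENSG00000134440) for asparagine had values of −0.03 and −0.08 (−0.33 and −0.38 on TPM as deposited), also with overlap. DARS (ENSG00000115866) for aspartate was lower without overlap and not called (log2 fold change −0.14, SE 0.06, limma, Benjamini-Hochberg adjusted p = 0.211; −0.43 on TPM as deposited). GARS (ENSG00000106105), glycyl-tRNA synthetase and the most abundant of the 20, was at 221, 230.2 and 205 scaled TPM in the HA-TAZ libraries and at 317, 239 and 220.3 in the controls. Control a stood far above the other controls, control c lay within the HA-TAZ range, and GARS was not called (log2 fold change −0.22, SE 0.14, limma, Benjamini-Hochberg adjusted p = 0.328; −0.52 on TPM as deposited).

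VARS, valyl-tRNA synthetase, was quantified on 7 gene IDs whose sequences are near-identical copies, so its reads were split and the values of each ID are uncertain. The main ID, ENSG00000204394, was at 3.59, 4.14 and 3.87 scaled TPM in the HA-TAZ libraries and at 4.48, 4.63 and 4.96 in the controls and not called (log2 fold change −0.23, SE 0.09, limma, Benjamini-Hochberg adjusted p = 0.143). The 7 IDs ran from −0.51 to 0.59 on the log2 scale, and 0 of 7 were called by limma. Their sum was 105, 103 and 105 scaled TPM in the HA-TAZ libraries and 86.9, 90.6 and 87.4 in the controls. In the fit that summed IDs by symbol, VARS thus turned from −0.23 to 0.24 (SE 0.04, limma, Benjamini-Hochberg adjusted p = 0.0273) and was called higher.

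Of the 8 synthetases that sit in the multi-synthetase complex, 1 was called higher (KARS), and of the 12 outside it 2 (FARSA and WARS), with medians of 0.05 and 0.14. Of the 11 often described as ATF4 targets 1 was called higher (WARS), and of the 9 others 2 (KARS and FARSA), with medians of 0.11 and 0.06. All 4 medians were below 0 on TPM as deposited (−0.25, −0.15, −0.18 and −0.24 in this order). Of all genes 4.67% were called higher, and of protein-coding genes 7.5%. VARS, among the 12 and the 9, is taken here by its main ID, and its sum over IDs was called higher. The differences between these classes were not tested.

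Shares within the synthetases do not depend on the scaling. WARS made up 8.66 ± 0.175% against 6.63 ± 0.129% of the summed TPM of the 20 (SD, n = 3 each, HA-TAZ against control, with VARS summed over its IDs), which moved it past IARS, EPRS and NARS in the order of mean shares. KARS made up 5.04 ± 0.0826% against 4.17 ± 0.371% and FARSA 3.32 ± 0.0873% against 2.85 ± 0.175%. VARS made up 5.22 ± 0.186% against 4.69 ± 0.185%, and the shares of FARSB, HARS and SARS were higher without overlap as well. GARS made up 10.9 ± 0.410% against 13.7 ± 2.33%, and DARS 1.26 ± 0.0136% against 1.47 ± 0.106%. IARS and LARS also had lower shares without overlap, at 7.35 ± 0.0877% against 7.77 ± 0.152% and 5.02 ± 0.0778% against 5.46 ± 0.182%. The exact permutation p was 0.1 for each of these shares, and the groups overlapped for the other 9 synthetases. A higher share of 1 member lowers the shares of the rest, so these values are not independent.

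**Figure D3:**
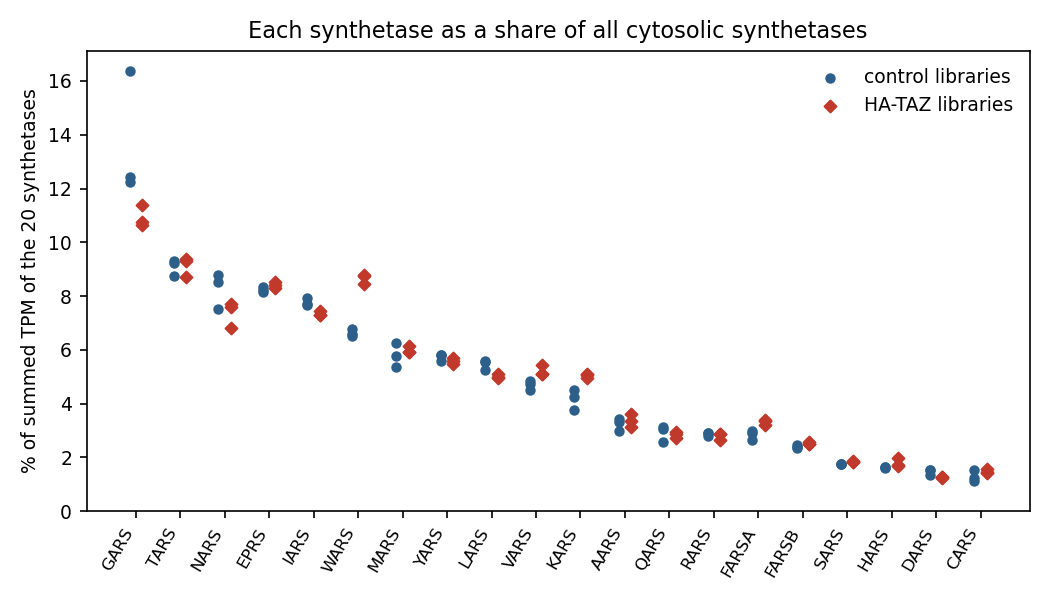
Each cytosolic synthetase as a percentage of the summed TPM of all 20, per library, ordered by the control mean. WARS lies between 8.46% and 8.79% in HA-TAZ libraries and between 6.52% and 6.77% in controls, and GARS of control a (16.4%) stands above all other points.

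WARS had the smallest adjusted p of the module on scaled TPM. WARS (ENSG00000140105) was at 179.6, 171 and 169 scaled TPM in the HA-TAZ libraries and at 128, 130.01 and 117 in the controls. The lowest HA-TAZ library was 1.30 times the highest control. WARS rose by 0.47 on the log2 scale (SE 0.05, limma, Benjamini-Hochberg adjusted p = 0.0146), and by 0.17 on TPM as deposited, where it was not called (adjusted p = 0.205 by limma). Without 1 library its value ran from 0.42 to 0.50 and its adjusted p from 0.0381 to 0.0718, and it lost its call without HA-TAZ 1, HA-TAZ 2, HA-TAZ 3 or control b. The ratio of WARS to YARS, the tyrosyl enzyme of similar fold, was 1.56, 1.54 and 1.54 in the HA-TAZ libraries and 1.18, 1.16 and 1.13 in the controls within libraries, without overlap (exact permutation p = 0.1). The mitochondrial tryptophanyl enzyme WARS2 had a log2 fold change of 0.16 (limma adjusted p = 0.364; −0.05 on TPM as deposited).

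RefSeq gives 2 start windows for WARS. Only the downstream one held a match to the interferon-stimulated response element (ISRE), searched as GAAA, any 2 bases, GAAA on both strands, and it held a GAS match too; the window is shown because WARS is the interferon-inducible synthetase. It lies at chr14:100375298-100375597 (GRCh38.p14, minus strand), with the GAS core and then the ISRE core in capitals, which do not overlap.
WARS downstream start: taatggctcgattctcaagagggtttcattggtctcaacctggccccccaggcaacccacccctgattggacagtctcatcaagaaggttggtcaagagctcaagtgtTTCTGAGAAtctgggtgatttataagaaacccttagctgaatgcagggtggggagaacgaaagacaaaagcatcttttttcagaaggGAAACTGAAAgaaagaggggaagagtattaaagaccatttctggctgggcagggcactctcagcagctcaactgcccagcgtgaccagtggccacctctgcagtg
The upstream window, chr14:100376278-100376577, held none of the 3 motifs. The ISRE core was held by 2 of the 27 members (7.41%, WARS and ATF5), against 4.38% of all genes. Transcripts that GENCODE release 29 starts within 500 bases of either start were summed. The 21 transcripts of the downstream start held 41.5 ± 2.01 against 28.7 ± 1.15 scaled TPM, and the 18 of the upstream start 117 ± 4.30 against 83.3 ± 7.49 (SD, n = 3 each). Neither overlapped between the groups, and HA-TAZ was the higher (exact permutation p = 0.1 each, 0.3 after Benjamini-Hochberg adjustment over 6 values). The downstream start took 24.4%, 23.5%, 23.9% of WARS TPM in the HA-TAZ libraries and 21.6%, 21.99%, 25.5% in the controls. These shares overlapped (exact permutation p = 0.5), so a shift between the starts was not detectable with 3 libraries a group. Start sites of RNA-seq transcript models are estimates, since reads do not mark the 5′ end.

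At the level of single transcripts, 3 of the 267 tested member transcripts were called (1.12%), all higher, where 0.564% of the 57448 tested transcripts were called in either direction (limma, Benjamini-Hochberg). Levels of single transcripts are given in TPM as deposited and their fold changes on scaled TPM. The WARS transcript ENST00000392882.2 was at 10.4, 9.72 and 10.5 TPM in HA-TAZ and at 6.39, 6.04 and 6.10 TPM in controls (log2 fold change 0.91, SE 0.10, limma, Benjamini-Hochberg adjusted p = 0.03). Its annotated start lies 297 bases upstream of the downstream start, before the printed window with its ISRE and GAS matches. ENST00000358655.4, the most abundant WARS transcript, starts near the upstream start. The latter was at 53.5, 60.96 and 53.3 TPM in HA-TAZ and at 49.7, 44.2 and 39.6 TPM in controls (log2 fold change 0.62, SE 0.07, limma, Benjamini-Hochberg adjusted p = 0.0365). The CARS transcript ENST00000380525.4 was at 4.13, 4.14 and 3.88 TPM in HA-TAZ and at 2.39, 2.18 and 2.65 TPM in controls (log2 fold change 0.79, SE 0.11, limma, Benjamini-Hochberg adjusted p = 0.0476), although the CARS gene was not called. None of the 3 was called in any fit that left out 1 library, nor with TPM as deposited, and 83 of the 267 member transcripts had an unadjusted p under 0.05 in limma (31.1%, where 24.3% of all tested transcripts had).

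The authors' deposited table, a test by sleuth for each transcript with effects on the natural log scale, called more. Of the member transcripts, 377 had statistics in the authors' deposited table, and at a q-value under 0.05 there were 22 positive and 5 negative effects (5.84% and 1.33%), where 4.08% and 1.6% of all transcripts with statistics had them. The main WARS transcript ENST00000358655.4 had an effect of 0.457 (SE 0.0535, q-value 9.41e-15) in the authors' deposited table. There too the main transcripts of SLC3A2, MARS, KARS, YARS, FARSA and SLC7A5 were positive, for example ENST00000338663.7 of SLC3A2 with an effect of 0.392 (SE 0.0533, q-value 9.88e-11) in the authors' deposited table. For ENST00000261622.4, the main SLC7A5 transcript, the authors' deposited table listed an effect of 0.412 (SE 0.0839, q-value 1.00e-04), and for ENST00000258494.9 of ALDH1L2 it listed an effect of −0.242 (SE 0.0641, q-value 0.00611). For ENST00000394308.3, the most abundant ASNS transcript, the authors' deposited table listed an effect of 0.266 (SE 0.0668, q-value 0.00317), a positive effect for a gene whose summed level was −0.02 on the log2 scale. Taking the most abundant transcript of each member, 32 of 35 effects in the authors' deposited table were positive, 12 of them with a q-value under 0.05, and of the 3 negative ones 1 passed (91.4%, 34.3% and 2.86% of the 35). Over the most abundant transcripts of 11643 protein-coding genes the same shares in the authors' deposited table were 67.3%, 19.6% and 2.69%. The main ATF4 transcript ENST00000396680.1 had an effect of 0.120 (SE 0.0464, q-value 0.115) and the main DDIT3 transcript ENST00000346473.3 had an effect of 0.256 (SE 0.127, q-value 0.284) in the authors' deposited table. The 5 negative calls in the authors' deposited table were the ALDH1L2 transcript, retained-intron transcripts of DARS and PHGDH, and processed transcripts without a coding frame of MTHFD2 and YARS.

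Transcripts annotated with a retained intron were examined for this reason, a comparison chosen after the data were seen. They are partly spliced RNAs that total RNA libraries pick up, and GENCODE release 29 gave 23 members at least 1 TPM of both a retained-intron and a protein-coding class. The retained-intron share of the gene's TPM was lower in HA-TAZ libraries without overlap for 14 of the 23 (60.9%) and higher for 0, where it was lower without overlap for 30.8% and higher for 2.47% of the 4694 genes of that kind. Across each library as a whole, retained-intron transcripts took 3.92% to 4.37% of TPM in HA-TAZ and 4.92% to 5.77% in control libraries, so the members' shares moved with a difference of the whole libraries, and its part in their values was not tested. For GARS the share was 22.7%, 27.4% and 21.8% of its TPM in the HA-TAZ libraries and 52.2%, 33.8% and 34.7% in the controls. DARS had shares of 16.3%, 15.2% and 12.8% of its TPM in the HA-TAZ libraries and 38.2%, 24.2% and 26.2% in the controls. Both were highest in control a. HARS had 21.9%, 21.7% and 23.5% of its TPM in the HA-TAZ libraries and 35.9%, 32.7% and 29.3% in the controls, and CARS 30.96%, 31.1% and 30.7% of its TPM in the HA-TAZ libraries and 40.7%, 38.2% and 39.7% in the controls. For SLC3A2 the share was 22.02%, 22.9% and 21.5% of its TPM in the HA-TAZ libraries and 30.7%, 30.8% and 28.1% in the controls, and for ASNS 10.8%, 11.3% and 11.03% of its TPM in the HA-TAZ libraries and 15.8%, 14.1% and 14.1% in the controls. The shares of WARS, FARSA, SLC7A5 and ALDH1L2 overlapped between the groups, and that of KARS was lower without overlap (5.62% against 6.78%). The log2 ratio of retained-intron to coding TPM had a median difference of −0.33 over the 23 members and −0.22 over the 4694 genes. By limma 0 members were called, with a smallest Benjamini-Hochberg adjusted p of 0.0548 for DARS, where 0.128% of the genes were called. At an unadjusted p under 0.05 in limma 9 of the 23 members were lower (39.1%), where 26.7% of the genes were.

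**Figure D4:**
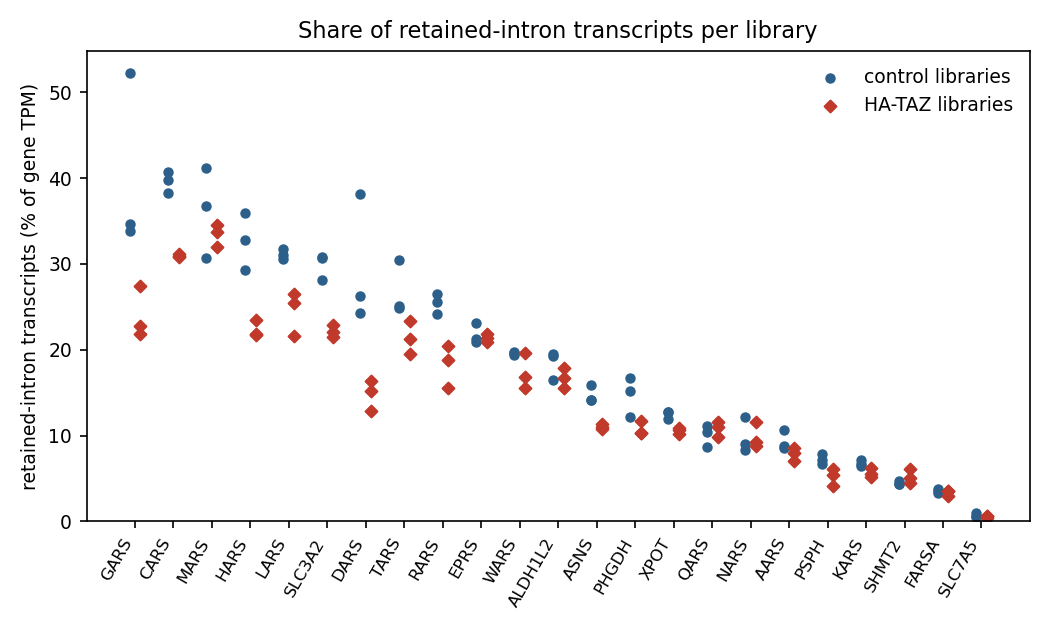
Share of each gene's TPM in retained-intron transcripts, per library, for the 23 members with both classes, ordered by the control mean. Diamonds of HA-TAZ libraries lie below all control points for 14 genes, with the widest gaps for GARS, DARS, HARS and CARS.

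Counting protein-coding transcripts alone, an alternative added after the data were seen, moved several members. Of 34 members with a value, 7 were called higher (20.6%, where 9.47% of genes were) and 2 lower (5.88%, where 9.41% were). CARS went from 0.28 to 0.50 (limma, Benjamini-Hochberg adjusted p = 0.0098) and MARS from 0.14 to 0.21 (adjusted p = 0.0228 by limma), both then called higher beside SLC7A5, SLC3A2, WARS, KARS and FARSA. Of these, SLC7A5 went from 0.54 to 0.39, WARS from 0.47 to 0.39, KARS from 0.36 to 0.26 and FARSA from 0.30 to 0.16. SLC3A2 went from 0.38 to 0.40. ATF5 went from −0.07 to −0.22 and was called lower (adjusted p = 0.03 by limma) beside ALDH1L2, at −0.54. GARS went from −0.22 to 0.01 and DARS from −0.14 to 0.02, neither called, and ATF4 from 0.16 to 0.01 (adjusted p = 0.887 by limma). Factors for this fit were computed on coding transcripts, for which the median of all genes was 0.00.

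Other genes of the stress pathway were taken from lists chosen by known function, with earlier results of these data known. Of 31 other ATF4 targets 28 were tested, and 3 rose and 0 fell, with a median of 0.16 (−0.14 on TPM as deposited). For this list and those below, 4.67% of all genes and 7.5% of protein-coding genes were called higher, and 2.63% and 2.18% lower. The counts of the lists were not tested against these shares. PPP1R15A (ENSG00000087074), or GADD34, which brings a phosphatase to eIF2 and so ends the response, rose by 0.90 (46.3 ± 1.02 against 24.4 ± 1.35 scaled TPM (SD, n = 3 each); limma adjusted p = 0.00268; 0.61 on TPM as deposited, also called). ATF3 (ENSG00000162772), a stress-induced repressor, rose by 0.87 (27.1 ± 1.29 against 14.3 ± 1.28 scaled TPM (SD, n = 3 each); limma adjusted p = 0.00899; 0.59 on TPM as deposited, also called). ADM2 (ENSG00000128165), a peptide of the adrenomedullin family, rose by 0.50 (5.34 ± 0.472 against 3.49 ± 0.284 scaled TPM (SD, n = 3 each); limma adjusted p = 0.0429; 0.25 on TPM as deposited). Not called were TRIB3 (0.31), SESN2 (0.36), DDIT4 (0.28) and PYCR1 (0.45), and the stress gene NUPR1 had the lowest value (−0.49, limma adjusted p = 0.18). Without HA-TAZ 1 the list had 1 call (PPP1R15A), and 2 in each other fit that left out a library. With TPM as deposited it had 2 calls higher and 3 lower, where 1.15% of all genes were called higher and 13.5% lower.

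Of 17 genes for eIF2, its kinases, its exchange factor and its phosphatase, 3 rose and 0 fell, with a median of 0.12 (−0.18 on TPM as deposited). Called higher were 4.67% of all genes and 7.5% of protein-coding genes. The 3 that rose were all on the phosphatase side. They were PPP1R15A, the catalytic subunit PPP1CA (ENSG00000172531) (0.33, limma adjusted p = 0.0322) and the constitutive partner PPP1R15B (ENSG00000158615) (0.29, limma adjusted p = 0.042), whose values were 0.03 and 0.00 on TPM as deposited. The other catalytic subunits of the phosphatase, PPP1CB (0.12) and PPP1CC (0.13), were not called. The eIF2 subunits EIF2S1, EIF2S2 and EIF2S3 had values of 0.22, 0.12 and 0.15, none called. PPP1R15A was the 1 call in each fit without a library. The kinases EIF2AK1, EIF2AK2, EIF2AK3 and EIF2AK4 had values of −0.03, 0.07, −0.02 and −0.20, none called. Of 17 mitochondrial synthetases 0 were called by limma (median 0.11, −0.16 on TPM as deposited). At an unadjusted p under 0.05 in limma 2 were higher and 0 lower. Of all genes 16.6% were higher and 14.1% lower at that p, and of protein-coding genes 26% and 9.96%. The 3 scaffolds of the synthetase complex, AIMP1, AIMP2 and EEF1E1, had values of 0.09, 0.16 and 0.10, with 0 called by limma and 0 at an unadjusted p under 0.05. Of 9 other folate genes, SLC25A32 (ENSG00000164933), the mitochondrial folate carrier, rose by 0.28 (limma adjusted p = 0.0497; −0.01 on TPM as deposited), a call lost in each fit without a library (adjusted p from 0.0523 to 0.136).

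Among 16 ATF6 and XBP1 targets of the endoplasmic reticulum, HSP90B1 (ENSG00000166598), the chaperone GRP94, rose by 0.31 (310.1 ± 8.30 against 249.97 ± 6.50 scaled TPM (SD, n = 3 each); limma adjusted p = 0.0239; 0.01 on TPM as deposited) and 0 fell, with a median of 0.10 (−0.20 on TPM as deposited). Called higher were 4.67% of all genes and 7.5% of protein-coding genes. HSP90B1 was not called in any fit without a library (adjusted p from 0.0536 to 0.097). HSPA5, the chaperone BiP, had a value of 0.14 and was not called. Of 5 tested nutrient sensors and exporters, SESN1 (ENSG00000080546), a leucine-sensing sestrin and p53 target, fell by 0.49 (limma adjusted p = 0.0307; −0.77 on TPM as deposited, also called), and adjusted p ran from 0.0584 to 0.116 without 1 library. Called lower were 2.63% of all genes and 2.18% of protein-coding genes. For tryptophan catabolism, IDO1, IDO2, TDO2 and KYNU were below the filter, and KMO (−0.11) and AFMID (0.27) were not called by limma. At an unadjusted p under 0.05 in limma 1 of them was higher, where 16.6% of all genes and 26% of protein-coding genes were.

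Interferon-gamma response genes stood beside WARS. Of 12 listed, chosen with earlier results of these data known, 9 were tested, 7 rose (77.8%) and 0 fell. Of all genes 4.67% were called higher, and of protein-coding genes 7.5%. All 9 were higher without overlap, where 20.2% of all genes and 31.4% of protein-coding genes were. Their median was 0.84 (0.57 on TPM as deposited, where 5 were called). The largest rises were those of the chemokine CXCL10 (ENSG00000169245) (3.38, 40.3 ± 3.01 against 2.98 ± 0.229 scaled TPM (SD, n = 3 each)), the GTPases GBP2 (ENSG00000162645) (1.49) and GBP1 (ENSG00000117228) (1.06), the transcription factor IRF1 (ENSG00000125347) (1.02) and the peptide transporter TAP1 (ENSG00000168394) (0.84), with limma adjusted p from 1.32e-04 to 0.013. PSMB9, an immunoproteasome subunit, rose too. WARS, at 0.47, was below each of the 9 in this list, the lowest being PSMB9 at 0.59, and above each other synthetase taken by its main ID on scaled TPM. IDO1, GBP5 and CXCL9 were below the filter. Of these, IDO1 and GBP5 overlapped between the groups, and CXCL9 was higher without overlap. The filter is a mean over all 6 libraries. GBP2 (3.15 against 0.66 TPM, HA-TAZ against control) and SOCS1 (1.43 against 0.68 TPM) passed it only through the HA-TAZ libraries. The counts of this list thus depend in part on the filter. CXCL10, GBP1, GBP2 and IRF1 were called in all 6 fits without a library. The list kept 4 calls without HA-TAZ 1, HA-TAZ 2 or control b, 5 without HA-TAZ 3 and 6 without control a or control c.

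**Figure D5:**
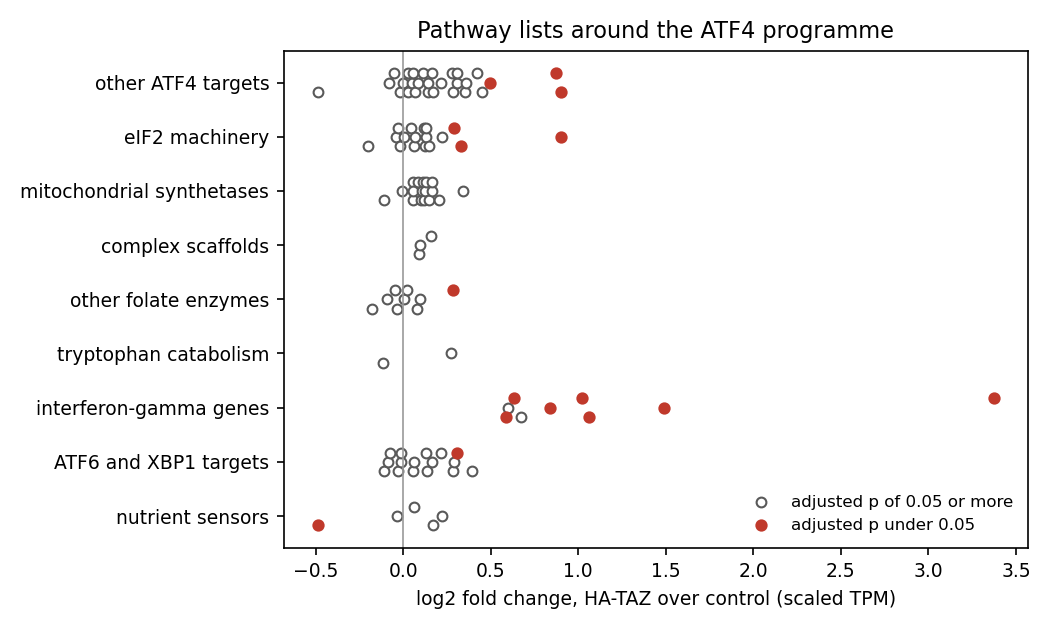
Log2 fold change, HA-TAZ over control on scaled TPM, of each tested gene of the 9 pathway lists, 1 point per gene, filled where the adjusted p is under 0.05 (limma). All 9 tested interferon-gamma genes lie at 0.59 or above, while the mitochondrial synthetases lie between −0.11 and 0.34 with 0 filled.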

How the data were processed

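The authors deposited TPM per transcript, an abundance corrected for transcript length, for 6 libraries of KMS27 total RNA. Per the submitters' processing notes the tools include kallisto 0.46.0 and sleuth 0.30.0 and the build is GRCh37; whether quantification used the strand is not given in the sources used here. The deposited TPM sum to 1000000 in each library. Per the file headers, the authors' deposited table of their own comparison gives p-values, q-values and effects for 109487 transcripts; the authors' effects are read as natural logs, the scale sleuth uses.

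TPM of transcripts was added up by Ensembl gene ID through the pairing in that table, and the 22651 genes whose mean TPM reached 1 were kept. TPM was divided by median-of-ratios factors over those above 0 in every library, which were 0.866 to 0.967 for HA-TAZ and 1.06 to 1.21 for control libraries. limma 3.58.1 (R 4.3.3) with an intensity trend tested log2(scaled TPM + 1) in both directions, at a Benjamini-Hochberg adjusted p under 0.05 over all genes; fold changes on this scale understate those of low genes. Transcripts were tested likewise, and single values by exact two-sided permutation tests, whose smallest p for 3 against 3 is 0.1. The fit was tested on simulated data. Transcript classes came from GENCODE release 29, by ID, which held the transcripts that carry 96.05% of member TPM outside VARS. Promoter windows came from RefSeq. Other work used Python 3.11.15 with pandas 2.3.3, numpy 2.4.6 and, for plots, matplotlib 3.10.9.

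The members and lists were chosen with earlier results of these data known. Full statistics are given for members past the threshold, for WARS, ATF4, DDIT3 and ASNS, and for the highest and lowest member of each role, and of each list up to 5 called genes; FARSB, GARS and DARS and the list genes not called were chosen after their values were seen. The values of 1 gene of a list are not reported here. Alternatives were TPM as deposited, protein-coding genes, other pseudocounts (0.1) and filters (none, or a mean TPM of 5), no trend, IDs summed by symbol and leaving out each library.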

Additional observations from a re-analysis of the deposited data

How the results depend on the processing

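With TPM as deposited, 1 member was called higher and 6 lower instead of 5 and 1, the median of the members turned to −0.21, and WARS lost its call at 0.17. The log2 fold change then reversed to ATF4 −0.14, DDIT3 −0.24, CHAC1 −0.019, PSAT1 −0.15, PSPH −0.10, SLC7A11 −0.25, MTHFD2 −0.25, SHMT2 −0.16, XPOT −0.29, AARS −0.16, CARS −0.0062, EPRS −0.18, FARSB −0.14, HARS −0.078, IARS −0.29, MARS −0.16, QARS −0.24, RARS −0.25, SARS −0.14, TARS −0.21, YARS −0.25, PPP1R15B −0.0013 and SLC25A32 −0.0091. This shift of all values follows from the factors. Over protein-coding genes alone the members' median was 0.016 with 2 members lower (ALDH1L2, and VARS by its main ID), and reversed values were DDIT3 −0.029, SLC7A11 −0.037, MTHFD2 −0.023, XPOT −0.062, IARS −0.069, QARS −0.018, RARS −0.029 and YARS −0.024. Over protein-coding transcripts alone (added later) the median was 0.0092 with 2 lower, and reversed values were DDIT3 −0.10, SLC7A11 −0.090, SHMT2 −0.033, XPOT −0.11, DARS 0.024, EPRS −0.025, FARSB −0.15, GARS 0.0075 and IARS −0.024. The FARSB value there leaves out its most abundant transcript, ENST00000536361.1, which GENCODE release 29 does not hold. That transcript made up 85.0% of FARSB TPM in HA-TAZ and 83.0% in controls (means), with a log2 fold change of 0.19 on scaled TPM. With gene IDs summed by symbol VARS reversed to 0.24. Members called higher and lower were 1 and 0 without a filter on level, and 2 and 0 without an intensity trend. Over all genes 691 of 47371 were called without a filter and 758 of 22651 without trend, against 1652 of 22651 in the main fit. The cause of the moves other than the shift was not tested.

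Lists moved as well, and so did calls over all genes. In the main fit 1652 of 22651 genes were called, and 3329 with TPM as deposited. Over protein-coding genes 2746 of 11666 were called, and 2240 of 12613 at a mean TPM from 5 up. With IDs summed the count was 1790 of 21011, and over coding transcripts 1988 of 10527. At a pseudocount of 0.1 it was 1615 of 22651. List counts were not tested against these. Other ATF4 targets had 3 calls, 5 with TPM as deposited, 7 over protein-coding genes, 6 at a mean TPM from 5 up, 6 with IDs summed and 5 over coding transcripts. The eIF2 list had 3, and 1 without a filter or without trend. Mitochondrial synthetases had 0, and 1 with TPM as deposited, over protein-coding genes or at a mean TPM from 5 up. Folate genes had 1, 3 with TPM as deposited, and 0 at a pseudocount of 0.1, without a filter, without trend or over coding transcripts. Interferon-gamma genes had 7, and 4 at a mean TPM from 5 up, where fewer were tested. ATF6 and XBP1 targets had 1, 2 with TPM as deposited, 3 over protein-coding genes, 2 at a mean TPM from 5 up, 0 without trend and 2 over coding transcripts. Nutrient sensors had 1, 0 without a filter and 2 over coding transcripts. Member transcripts called were 3, 0 with TPM as deposited, 12 at a mean TPM from 5 up, 1 without trend and 27 by the q-value in the authors' deposited table.

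Across the 6 fits that each left out 1 library, members called higher ranged from 0 to 3 and lower stayed at 0. Calls ranged from 1 to 2 for other ATF4 targets and from 4 to 6 for interferon-gamma genes. They were 1 in each fit for the eIF2 list, and 0 in each for folate genes, ATF6 and XBP1 targets, nutrient sensors and member transcripts. WARS ranged from 0.42 to 0.50. Signs turned among values near 0: DDIT3 −0.028 to 0.10, ASNS −0.048 to 0.019, XPOT −0.0037 to 0.037, IARS −0.012 to 0.028, LARS −0.054 to 0.0020, NARS −0.18 to 0.0082, QARS −0.016 to 0.10 and RARS −0.0017 to 0.11. Fewer libraries entered these fits, and calls over all genes ranged from 118 to 470, against 1652 with all 6 libraries.

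No paired analysis was possible because no label uses the word scr that heads the control columns, so their numbers name no particular wild type sample, and the fit with a replicate block was not run. The precision of each value is limited by 3 libraries a group and by the unknown depth of each library.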
